A study of Mus musculus with 22 samples.

Results

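The difference in nuclear RNA between GFP+ and GFP- nuclei of the mouse lumbar dorsal horn was compared between postnatal day 80 (P80) and postnatal day 7 (P7), gene by gene. The measure was a difference of differences on the log2(value + 1) scale, in which GFP- was subtracted from GFP+ at each age and the P7 difference was then subtracted from the P80 difference. It used 16 of the 22 libraries, 4 GFP+ and 4 GFP- libraries at each of the 2 ages, and every gene that passed a filter on low values, 18614 of 21363. All mice carried pDyn-Sun1-GFP, a fusion of GFP to the nuclear envelope protein Sun1 driven by the pDyn promoter, so that GFP+ nuclei were those of the pDyn lineage and the GFP- nuclei were the others of the same tissue, neuronal and non-neuronal. Each library came from 5000 sorted nuclei, GFP+ and GFP- samples were taken from the same animals, and both females and males were used at P7 and at P80. No treatment was given in the labels. The question was how the transcriptional difference of the pDyn lineage from the rest of the dorsal horn differs between the neonate and the adult.

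Prodynorphin is the precursor of the opioid peptides called dynorphins, and the dorsal horn neurons that make it are in large part inhibitory interneurons of the superficial laminae that take part in the control of pain and itch. After birth the spinal cord goes through myelination, in which precursor cells stop dividing, become oligodendrocytes and wrap axons, while neurons exchange early for late subunits of receptors and channels. A negative value of the difference of differences means that GFP+ nuclei stood lower against GFP- nuclei at P80 than at P7. It can come from a fall in GFP+ nuclei, a rise in GFP- nuclei or both, so the change from P7 to P80 was also tested within each population.

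The 16 libraries held 4244987 to 6827587 reads in genes, with 20014 to 20801 genes detected in each. Values are normalised read counts, in which the reads of a gene were divided by 1 size factor per library. Pdyn, which encodes prodynorphin, was 592, 663, 522 and 572 in the P7 GFP+ libraries and 8.32, 2.42, 6.9 and 1.89 in the P7 GFP- libraries. At P80 it was 491, 456, 501 and 457 in GFP+ nuclei and 15.7, 12.3, 12 and 0 in GFP- nuclei. The populations did not overlap at either age, and the difference of differences did not pass (-0.79 ± 0.87, standard error, adjusted p = 0.852). The P80 GFP- library ES8 stood apart. Its mean log2 level over 14 pan-neuronal genes was 8.41, against 8.97 to 9.47 in the other 3 P80 GFP- libraries, and its mean over 16 oligodendrocyte genes was 11.78, against 9.87 to 10.78. It was also the highest of the 4 P80 GFP- libraries in the mitochondrial transcript mt-Nd4 and was alone among them in holding haemoglobin transcripts of Hba-a2. Without it the Pdyn difference of differences was -1.75 (adjusted p = 0.0702), with a GFP- rise of 1.46 (adjusted p = 0.00626). Without ES8 and the P21 libraries ES12 and ES16, a fit chosen after seeing the data, the same value passed (adjusted p = 0.00792). That fit was the only 1 of 29 alternative settings in which Pdyn passed. Where a call described below is lost without ES8, the value without it is given. Because these are bulk samples, fewer nuclei of a type and less RNA per nucleus cannot be told apart.

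The population difference changed between P7 and P80 in 386 genes (2.07% of the genes tested, limma, Benjamini-Hochberg adjusted p under 0.05). It was lower at P80 in 307 genes (1.65%) and higher in 79 (0.424%). A larger number of genes, 2145, had an unadjusted p under 0.05. For comparison, 3203 genes differed between the populations at P7 (17.2%) and 5214 at P80 (28%). From P7 to P80, 1747 genes changed in GFP+ nuclei (9.39%) and 3041 in GFP- nuclei (16.3%). Without ES8, 261 genes passed, 54 higher and 207 lower, and 254 of them were among the 386 with the same direction. When libraries were instead scaled to equal pan-neuronal levels, which moved the median difference of differences over all genes to -0.19, 6 genes passed, and the sign was kept in all 386.

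Calls close to the threshold depended on single libraries. Of the 55 called genes chosen by the naming rule, 31 passed in each of 16 fits that left out 1 library of P7 or P80, and 24 lost their call in at least 1 of them. Among these 24 were Fyn and Pcdh18, which passed in 1 of the 16 fits, Rgs5 and Zeb1 in 3, Kcna6 and Plagl1 in 4, and Col24a1, Efnb3, Ptprd, Rab31 and Trf in 5. Ildr2, Kif15 and Slc1a3 passed in 6 fits, Fgfr3, Sepp1 and Stk32a in 7, Hmga2 in 9, Col11a2 in 10, Bbs12 and Slc12a2 in 11, Cbln1 in 12 and Dock6 in 14. Ildr2 did not pass without ES8 (adjusted p = 0.065). Each of the 16 libraries, GFP+ and GFP- alike, ended at least 1 of these 24 calls. No sign changed, but the naming rule had required this of the genes it took for their size or class.

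A population is said to have moved where its own change from P7 to P80 passed, and to have moved alone where the change of the other did not pass. The GFP- population moved alone in 251 of the 386 genes. In 195 of these GFP- nuclei rose and the population difference fell, and in 56 GFP- nuclei fell and the difference rose. The GFP+ population moved alone in 91 genes, of which 81 fell and 10 rose in GFP+ nuclei. In 25 genes the populations moved in opposite directions, in 17 they moved the same way by unequal amounts, and in 2 (Rab31 and Zeb1) neither change passed by itself. Without ES8 the changes within each population gave another class for 8 named genes. Daam2, Inf2, Rab31 and Zeb1 were then GFP+ alone, Itgb4, Neat1 and Sec14l5 opposite, and in Efnb3 neither change passed. Of these 8, Efnb3 and Zeb1 were then no longer called in the difference of differences (adjusted p = 0.0532 and 0.0544). Among all genes tested, 11.5% changed in GFP- nuclei alone, 4.51% in GFP+ nuclei alone, 0.134% in opposite directions and 4.74% in the same direction. The classes of the 386 genes were set by the same libraries as the difference of differences and describe it without adding evidence.

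**Figure D1:**
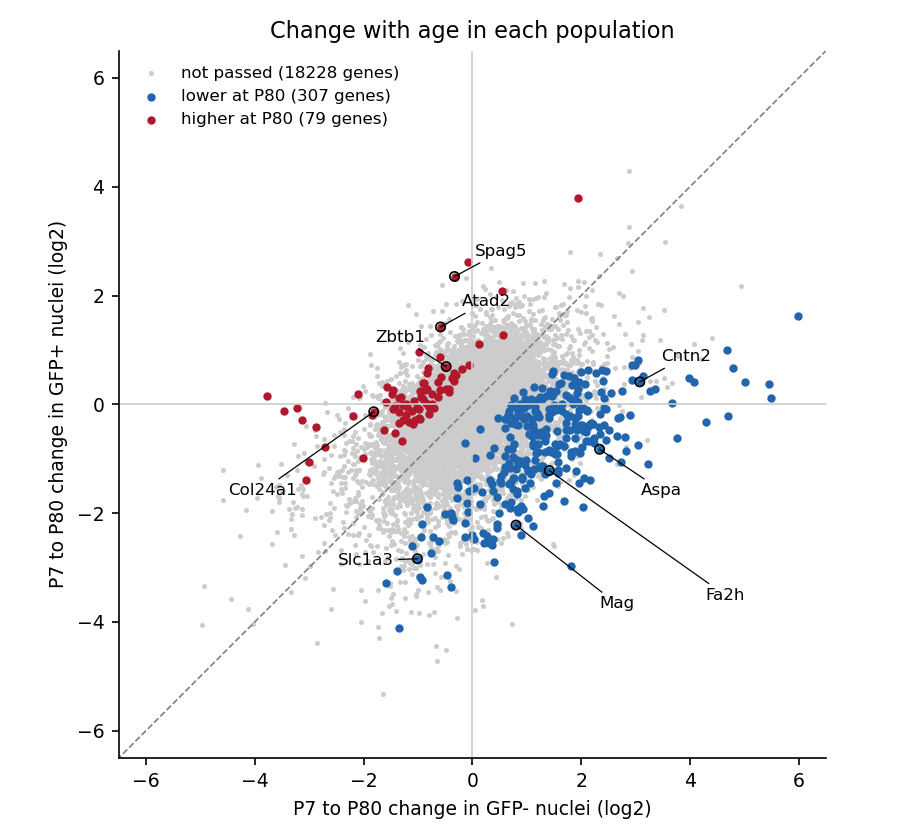
Each point is a gene, placed by its P7 to P80 change in GFP- nuclei (horizontal axis, log2) and in GFP+ nuclei (vertical axis, log2). The dashed line marks equal changes, blue points are the 307 genes whose population difference was lower at P80, red points the 79 in which it was higher and grey points the 18228 that did not pass; 2 grey genes lie outside the axes. Most blue genes lie to the right of 0, where GFP- nuclei were higher at P80, and the genes with a printed name are ringed.

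The lower genes differed in where they started. Of the 307, 135 were already lower in GFP+ nuclei at P7 and were so by more at P80. Another 152 did not pass at P7 and were lower in GFP+ nuclei at P80. In 9 genes GFP+ nuclei were higher at P7 and lower at P80, and in 11 they were higher at P7 and did not pass at P80. The median population difference over the 307 genes was -0.66 in the P7 libraries, -1.94 in those of P21 and -2.93 at P80. ES8 had the highest of the 4 P80 GFP- values in 290 of the 307 (94.5%), against 38.2% of all genes tested.

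Genes of myelinating oligodendrocytes made up the list with the most calls among the 42 examined. Of 16 oligodendrocyte genes tested, 14 were lower in the difference of differences (87.5%, against 1.65% of all genes tested) and the other 2, Cnp and Opalin, did not pass. The list's median was -2.54 on the log2 scale, against 0.00 over all genes tested. Its median population difference was -1.95 at P7 and -4.39 at P80. In GFP+ nuclei 12 of the 16 fell from P7 to P80 (5.91% of all genes tested did) and none rose (3.48%). In GFP- nuclei 5 rose (7.56% of all genes tested) and none fell (8.77%). Under every scaling tried the list's median lay between -2.74 and -2.51, but rescaling shifts all genes of a library together. With libraries scaled to equal pan-neuronal levels, no gene of the list passed. Without ES8, 12 of the 16 passed and the median was -2.16.

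Mag, the myelin-associated glycoprotein that faces the axon, is an example in which GFP+ nuclei moved. It was 310.1, 268, 205 and 249 in the P7 GFP+ libraries and 48.8, 56.8, 38.5 and 79.2 in the P80 GFP+ libraries. The GFP- libraries held 909, 1246, 961 and 976 at P7 and 923, 2041, 1223 and 4258 at P80. The P80 GFP+ values all lay below the P7 GFP+ values, while the GFP- values of the 2 ages overlapped. Its difference of differences was -3.02 ± 0.53 (adjusted p = 0.00541), with a GFP+ change of -2.22 (adjusted p = 0.000607) and a GFP- change of 0.80 (adjusted p = 0.165). Without ES8 it was -2.60 (adjusted p = 0.006).

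The same class, a fall in GFP+ nuclei alone, held 10 of the 14 oligodendrocyte genes called. They included the structural myelin genes Mobp (-2.56), Mbp (-2.30) and Mog (-2.75), the tight junction gene Cldn11 (-2.81), and Gjc3 (-3.12), which encodes connexin 29. Myrf, the transcription factor required for myelin gene expression, was -1.99 (adjusted p = 0.041) and did not pass without ES8 (adjusted p = 0.0605). Ugt8a, the enzyme that makes galactosylceramide for myelin, was -2.43. The P7 to P80 changes of these 7 genes in GFP+ nuclei lay between -2.44 and -1.20. Trf, which encodes the iron carrier transferrin, had the largest value of the list, -4.77 ± 1.13 (adjusted p = 0.0308). Its P7 GFP+ libraries ranged widely, at 302, 11.5, 38 and 232, and the P80 GFP+ libraries held 8.31, 11.8, 8.7 and 6.96. The lowest P7 library lay within the P80 range. It did not pass without ES8 (adjusted p = 0.0969).

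Aspa, Ermn and Mal are oligodendrocyte genes in which GFP- nuclei moved alone. Aspa encodes aspartoacylase, which breaks down N-acetylaspartate, Ermn the cytoskeletal protein ermin, and Mal a proteolipid of compact myelin. Aspa was 411, 611, 443 and 440.2 in the P7 GFP- libraries and 1621, 2877, 1366 and 5075 in the P80 GFP- libraries. In GFP+ nuclei it was 84.1, 90.5, 123 and 84.3 at P7 and 46.7, 38.6, 44.8 and 94.9 at P80. The GFP- values did not overlap between ages, and the GFP+ values did. Aspa rose in GFP- nuclei by 2.34 (adjusted p = 0.000176), and its difference of differences was -3.17 ± 0.52 (adjusted p = 0.00425) and -2.80 without ES8. Ermn rose in GFP- nuclei by 2.35 and Mal by 1.89, with differences of differences of -2.53 and -2.52.

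Fa2h, which adds the hydroxyl group to myelin galactolipids, moved in opposite directions. In GFP+ nuclei it was 43.2, 80.7, 45.4 and 59.4 at P7 and 22.9, 25.7, 16.2 and 30.5 at P80. Its GFP- values were 227, 344, 284 and 237 at P7 and 464, 824, 463 and 1516 at P80. Neither pair of groups overlapped. GFP+ nuclei fell by 1.22 and GFP- nuclei rose by 1.41, and the difference of differences was -2.63 ± 0.49 (adjusted p = 0.00672). Another 2 genes, Daam2 (-2.51) and Inf2 (-2.40), which encode formins that assemble actin filaments, had the same pattern with all libraries. Without ES8 their GFP- rises of 0.70 and 0.86 did not pass (adjusted p = 0.0924 and 0.0517).

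The promoter of Mag is shown because myelin genes are known targets of SOX10, a factor that binds the core letters ACAAAG. The sequence is RefSeq's for GRCm38.p6, chr7:30914814-30915113, minus strand, from 250 bases before to 50 bases after the first listed of 3 gene starts, with the match in capitals as it reads on the reverse strand (CTTTGT).
Mag: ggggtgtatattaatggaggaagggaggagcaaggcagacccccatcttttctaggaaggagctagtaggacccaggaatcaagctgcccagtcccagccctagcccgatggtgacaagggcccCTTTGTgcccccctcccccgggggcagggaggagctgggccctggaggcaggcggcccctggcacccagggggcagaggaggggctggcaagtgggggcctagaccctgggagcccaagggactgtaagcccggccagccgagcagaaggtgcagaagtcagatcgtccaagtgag
Of the 14 oligodendrocyte genes called, 9 had a promoter in the RefSeq table, and 2 of the 9 held ACAAAG on either strand (22.2%). All promoters of the same length held it in 18.7%, and the promoters of the lower genes in 18.9% (41 of 217). The share among the lower genes was near that of all promoters.

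Genes of oligodendrocyte precursors fell with age in GFP+ nuclei throughout the list. Of 14 precursor genes tested, all fell in GFP+ nuclei (5.91% of all genes tested) and 9 also fell in GFP- nuclei (8.77%), and the list's median difference of differences was -1.64. Only Enpp6 and Fyn passed (14.3%, against 2.07% of all genes tested). Enpp6, a choline phosphodiesterase of newly formed oligodendrocytes, was 96.6, 113, 123 and 116 in GFP+ nuclei at P7 and 23.9, 7.5, 11.2 and 9.57 at P80. In GFP- nuclei it was 505, 834, 566 and 510.1 at P7 and 274, 556, 314 and 683 at P80. The GFP+ groups were far apart and the GFP- groups overlapped, with a difference of differences of -2.66 ± 0.46 (adjusted p = 0.00441). Fyn, a Src-family kinase that acts in axon and glial signalling and is also made by neurons, went the other way. It fell in both populations, by 0.67 in GFP+ and by 1.30 in GFP- nuclei, and its difference of differences was 0.63 ± 0.16 (adjusted p = 0.0461).

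Most astrocyte genes fell in GFP+ nuclei. Of 16 tested, 13 fell in GFP+ nuclei (5.91% of all genes tested) and 6 in GFP- nuclei (8.77%). In the difference of differences 3 passed, all lower (18.8%, against 1.65% of all genes); the list's median was -1.18. Slc1a3, the glutamate transporter GLAST, was 177, 267, 196 and 271 in GFP+ nuclei at P7 and 29.1, 22.5, 24.9 and 52.2 at P80. GFP- nuclei had 731, 814, 593 and 734 at P7 and 256, 423, 262 and 552 at P80. Values at the 2 ages did not overlap in either population, and the difference of differences was -1.83 ± 0.43 (adjusted p = 0.028). Fgfr3, a receptor for fibroblast growth factors, had -1.50. None of the 3 passed without ES8, where Slc1a3 had -1.62 (adjusted p = 0.0656) and Fgfr3 had -1.41 (adjusted p = 0.0706).

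Markers of the remaining non-neuronal cells gave 2 calls. These were 1 of 15 endothelial and mural genes (6.67%) and 1 of 8 Schwann cell genes (12.5%), against 2.07% of all genes tested. No microglial gene of 14 passed (median -0.97), and of 15 endothelial and mural genes only Rgs5, a regulator of G protein signalling of pericytes, did (-1.69, adjusted p = 0.0459; adjusted p = 0.101 without ES8). Cdh19, a cadherin listed here for Schwann cells, was 110.0, 122, 149.8 and 88.8 in GFP- nuclei at P7 and 315, 604, 269.7 and 846 at P80. It was 17, 27.2, 34.3 and 23.4 in GFP+ nuclei at P7 and 11.4, 11.8, 18.6 and 10.4 at P80, with a difference of differences of -2.88 ± 0.50 (adjusted p = 0.00429). The GFP- groups did not overlap. No meningeal (10 genes), ependymal (4) or red blood cell gene (4) passed.

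The mean level of the oligodendrocyte and of the astrocyte list in GFP+ nuclei was lower at P80 than at P7. The mean log2 level of the 16 oligodendrocyte genes was 7.63 to 7.95 in the P7 GFP+ libraries and 6.08 to 6.55 in the P80 GFP+ libraries. In the P21 GFP+ libraries it was 7.98 to 8.39, above the P7 range, so it did not fall steadily with age. In GFP- nuclei it was 9.22 to 9.73 at P7 and 9.87 to 11.78 at P80. For 16 astrocyte genes the GFP+ range was 7.34 to 7.90 at P7, 6.83 to 6.99 at P21 and 5.67 to 6.41 at P80. Within each list none of these GFP+ ranges overlapped between ages, and all lay below those of GFP- nuclei of the same age. The part that glial RNA in the GFP+ sample has in the lower genes was not tested.

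**Figure D2:**
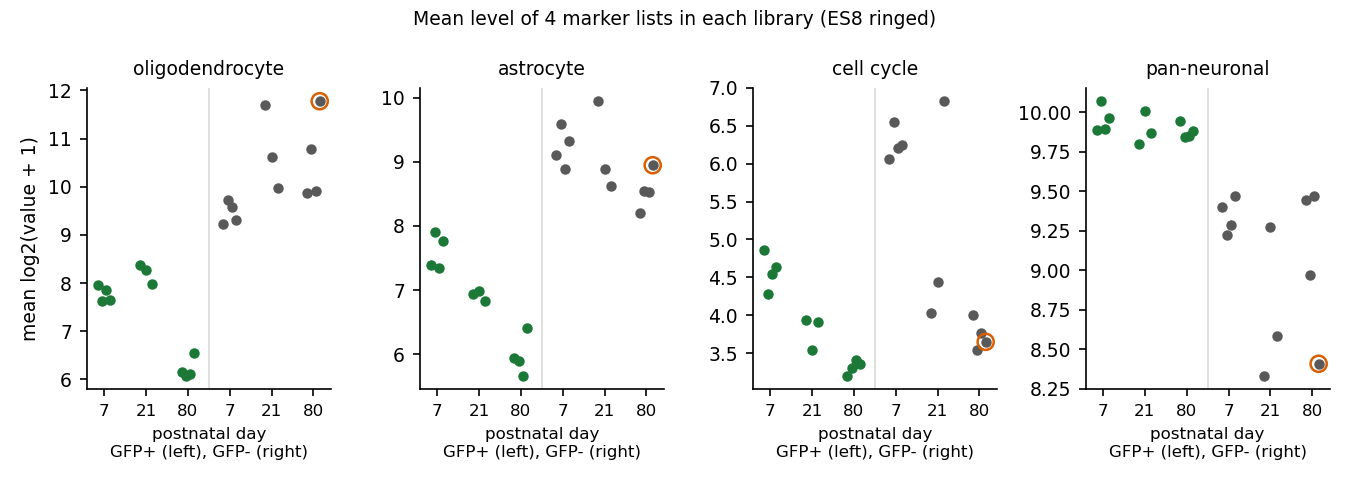
Mean log2(value + 1) of 4 marker lists in each library (vertical axes differ and do not start at 0), by postnatal day, with GFP+ libraries in green on the left of each panel and GFP- libraries in grey on the right; ES8 is ringed. Oligodendrocyte and astrocyte levels of GFP+ libraries were lowest at P80, cell cycle levels of GFP- libraries were 6.06 to 6.55 at P7 and 3.54 to 4.01 at P80, and ES8 had the highest oligodendrocyte and lowest pan-neuronal level of the P80 GFP- libraries.

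The oligodendrocyte markers Aspa, Gjc3 and Mag, described above, were among the 10 genes with the lowest differences of differences by the naming rule. The 10 genes were Itgb4, Rasgrp3, Prr5l, Aspa, Sec14l5, Gjc3, Asphd1, Car2, Mag and Sepp1, with values from -3.56 in Itgb4 to -2.997 in Sepp1. In 7 of them GFP- nuclei moved alone, and in Gjc3, Mag and Sepp1 GFP+ nuclei did. Rasgrp3, an activator of Ras and Rap, was 76.7, 97.6, 94.6 and 79.4 in GFP- nuclei at P7 and 448, 643, 432 and 1138 at P80. It was 22.7, 32.1, 30.6 and 42.2 in GFP+ nuclei at P7 and 30.1, 8.57, 18.6 and 33.9 at P80. The GFP- groups did not overlap, and the GFP+ groups did. Its difference of differences was -3.41 ± 0.56 (adjusted p = 0.00378).

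The population difference of Car2 and Asphd1 did not pass at P7 and passed at P80. Car2, the cytosolic carbonic anhydrase of oligodendrocytes, was 77.2, 63.4, 66.2 and 84.3 in P7 GFP+ and 108, 104, 107 and 112 in P7 GFP- nuclei. At P80 it was 86.2, 69.6, 93.2 and 97.5 in GFP+ and 743, 1080.5, 564 and 2713 in GFP- nuclei. The P7 GFP- values lay just above all GFP+ values, GFP+ values of the 2 ages overlapped, and every P80 GFP- value was above every other value, with a GFP- rise of 3.27 (adjusted p = 1.94e-06) and a difference of differences of -3.03 ± 0.49. Asphd1 rose in GFP- nuclei by 3.35; its span overlaps genes on the opposite strand, as do those of Bbs12, Cbln1, Dock6, Enpp6, Fyn, Hmga2, Itgb4, Kcna6, Prr5l, Ptprd and Sepp1, and reads of such pairs cannot be told apart because the counting is not stated to use strand. Itgb4, the beta 4 subunit of a laminin receptor, rose in GFP- nuclei by 2.17 (adjusted p = 0.00188). Sepp1, the selenium carrier selenoprotein P, fell in GFP+ nuclei by 1.69 and did not pass without ES8 (adjusted p = 0.0805).

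Neat1, a long noncoding RNA that builds nuclear paraspeckles, was among the lower genes. It was 2416, 2336, 2409 and 1673 in GFP- nuclei at P7 and 6407, 9972, 7384 and 18195 at P80. In GFP+ nuclei it was 909.9, 869, 1179 and 962 at P7 and 537, 482, 753 and 722 at P80. All P80 GFP- values exceeded all P7 GFP- values. Neat1 rose in GFP- nuclei by 2.14 (adjusted p = 6.45e-06), its GFP+ change did not pass (-0.67, adjusted p = 0.107, and 0.0262 without ES8), and its difference of differences was -2.81 ± 0.36 (adjusted p = 0.000519).

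Several genes listed for neuronal functions, matrix or growth were also lower, and in most of them GFP- nuclei rose. Cntn2, the adhesion protein contactin 2 found beside the node of Ranvier on axons and on oligodendrocytes, was 675, 839.6, 688 and 733 in GFP+ nuclei at P7 and 968, 957, 947 and 1021 at P80. The GFP- libraries held 341, 328, 409 and 509 at P7 and 2194, 3328, 2486 and 6573 at P80. GFP+ nuclei were above GFP- nuclei at P7 (0.90, adjusted p = 0.0235) and below them at P80 (-1.76, adjusted p = 3.77e-05), without overlap at either age. For this gene the difference of differences was -2.67 ± 0.38 (adjusted p = 0.00155), and -2.34 without ES8.

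The hyperpolarization-activated channel gene Hcn2 was 125, 133, 126 and 182 in GFP- nuclei at P7 and 491, 751, 512 and 1656 at P80. In GFP+ nuclei it was 166, 188, 178 and 163 at P7 and 179.7, 189.6, 177 and 205 at P80. The P80 GFP- values lay above all others. The difference of differences was -2.30 ± 0.44 (adjusted p = 0.00782). The potassium channel gene Kcna6 (-1.22), the sodium-potassium-chloride importer Slc12a2 (-1.60), the receptor phosphatase Ptprd (-1.21), the ephrin Efnb3 (-1.83), the imprinted gene Plagl1 (-1.04) and the matrix link protein Hapln2 (-2.95) were in the same class, and ES8 was the highest P80 GFP- library in each of them and in Cntn2 and Hcn2. Of these 6, Efnb3 and Plagl1 did not pass without ES8 (adjusted p = 0.0532 and 0.0674). ES8 also had the highest oligodendrocyte level, and the part of oligodendrocyte RNA in these values was not tested.

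In 3 such genes GFP+ nuclei fell alone. Cbln1, the synaptic organizer cerebellin 1, was 52.3, 39.5, 45.4 and 62.5 in GFP+ nuclei at P7 and 8.31, 9.64, 14.9 and 13.9 at P80. In GFP- nuclei it was 155, 127, 115 and 151 at P7 and 94, 101, 116 and 77.8 at P80. GFP+ values of the 2 ages were far apart and GFP- values overlapped. ES8 had the lowest P80 GFP- value. For this gene the difference of differences was -1.52 ± 0.35 (adjusted p = 0.0221). Plxnb3, a semaphorin receptor listed for axon guidance, had -2.94 and Stmn1, a microtubule-destabilizing protein of growing neurons, had -1.87. The population difference of Plxnb3 was -2.53 at P7 and -5.47 at P80, near those of the oligodendrocyte gene Mag (-1.99 and -5.01). The part of oligodendrocyte RNA in its values was not tested. Col11a2, a fibrillar collagen chain, fell in both populations, from 943, 1231, 1006 and 1339 to 151, 95.3, 83.3 and 138 in GFP+ nuclei and from 983, 1292, 1109.9 and 1249.8 to 276, 376, 408 and 512 in GFP- nuclei. The groups of the 2 ages were apart in both populations, and the difference of differences was -1.71 ± 0.39 (adjusted p = 0.0254; adjusted p = 0.0656 without ES8).

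Calls in other neuronal lists are given beside the 2.07% of all genes tested that passed. They were 3 of 35 axon guidance genes (8.57%), 2 of 31 synaptic adhesion genes (6.45%), 1 of 31 potassium channel genes (3.23%), 1 of 26 sodium, calcium and HCN channel genes (3.85%) and 1 of 19 genes of the node and axon initial segment (5.26%). None passed among 14 pan-neuronal, 11 inhibitory, 11 excitatory, 11 inhibitory dorsal horn peptide and marker, 10 excitatory peptide, 7 opioid, 27 presynaptic release, 28 ionotropic glutamate receptor, 7 metabotropic glutamate receptor, 36 peptide and monoamine receptor, 17 immediate early and 26 dorsal horn transcription factor genes. List medians of 0.23 (pan-neuronal), 0.34 (inhibitory) and 0.19 (presynaptic release) became -0.00055, -0.01 and -0.06 without ES8. No gene passed either among 3 motor neuron, 2 primary sensory neuron, 17 Hox, 12 DNA methylation and chromatin reader, 26 ribosomal protein, 21 nuclear-encoded respiratory chain and 7 mitochondrially encoded genes.

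**Figure D3:**
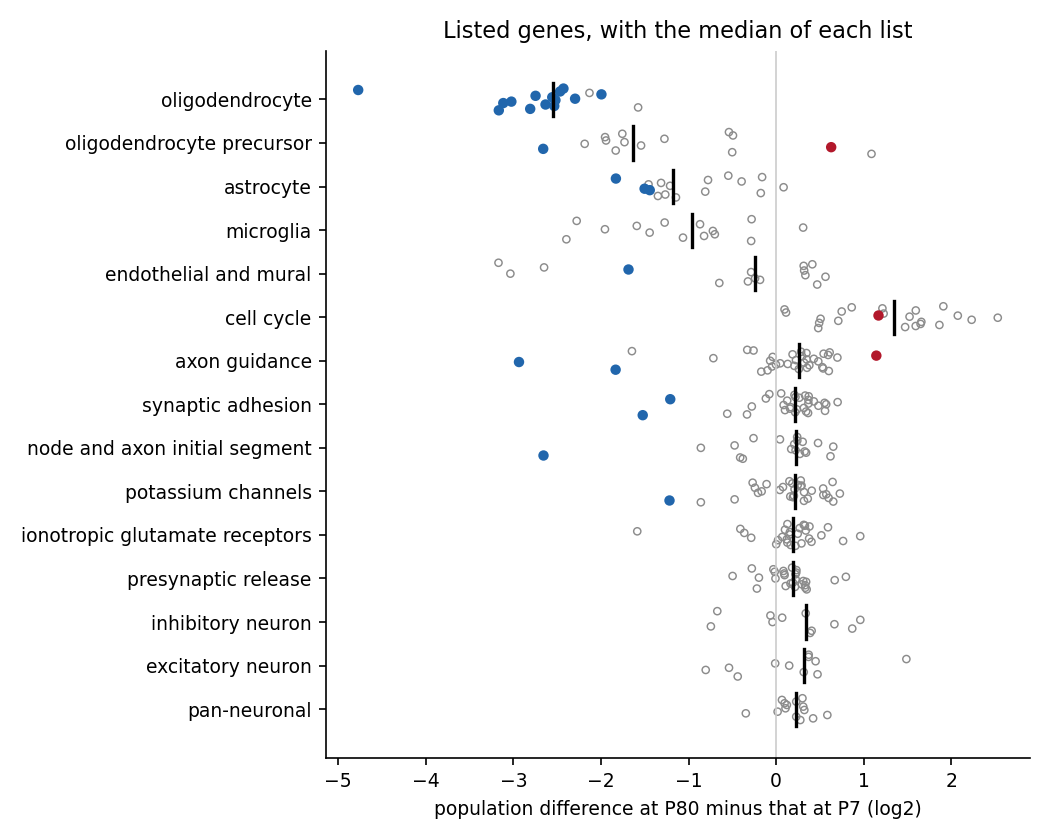
Population difference at P80 minus that at P7 (horizontal axis, log2) for the tested genes of 15 lists, with called genes filled (blue lower, red higher), other genes open and the list's median as a black bar; vertical spread within a row only separates the points. Oligodendrocyte genes lie between -4.77 and -1.58, cell cycle genes between 0.10 and 2.53, and neuronal lists lie around 0 with a few called genes to the left and 1, Sema5a, to the right.

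Most immature neuron genes fell with age in both populations. In that list 12 of 18 genes fell in GFP+ nuclei (5.91% of all genes tested) and 13 of 18 in GFP- nuclei (8.77%). Only Stmn1 passed in the difference of differences (5.56%, against 2.07% of all genes), and the list's median was 0.13. Grin2c, an NMDA receptor subunit, was 24, 52.4, 24.6 and 34 in GFP- nuclei at P7 and 58.8, 73.8, 87.2 and 109 at P80. It was 276, 251, 273 and 284 in GFP+ nuclei at P7 and 235, 245, 170.3 and 243 at P80, and it narrowly missed the threshold (-1.59 ± 0.42, adjusted p = 0.0532). Its GFP- values of the 2 ages did not overlap. Slc17a8, the vesicular glutamate transporter VGLUT3, fell in both populations, with changes of -1.24 in GFP+ and -2.73 in GFP- nuclei, and its difference of differences did not pass (1.49 ± 0.44, adjusted p = 0.0903).

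The median difference of differences of the 79 higher genes was 1.13, with median changes of 0.10 in GFP+ and -0.97 in GFP- nuclei. In 38 of them GFP+ nuclei were lower at P7 and the difference did not pass at P80. In 27 it did not pass at P7 and GFP+ nuclei were higher at P80, in 6 the order was inverted from lower to higher, in 5 GFP+ nuclei were higher at both ages and in 3 lower at both.

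Spag5 was the highest of them by the naming rule. It encodes astrin, a protein of the mitotic spindle and the kinetochore. It was 51.1, 54.3, 72.3 and 45.3 in GFP+ nuclei at P7 and 339, 276, 254 and 274 at P80. Values in GFP- nuclei were 225, 394, 241 and 301 at P7 and 281, 210.3, 253 and 172 at P80. The P7 GFP+ libraries were below all others, which overlapped each other. Spag5 rose in GFP+ nuclei by 2.35 (adjusted p = 6.23e-08) while the GFP- change was -0.33 (adjusted p = 0.264), and the difference of differences was 2.68 ± 0.27 (adjusted p = 2.38e-05). Without ES8 it was 2.55.

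Atad2, a chromatin ATPase with a bromodomain, had the same form. It was 47.7, 50.2, 52.7 and 53.1 in GFP+ nuclei at P7 and 143, 129.6, 158 and 124 at P80. Its GFP- values were 204, 226, 180.4 and 243 at P7 and 219, 107, 150.4 and 111 at P80. GFP+ values of the 2 ages did not overlap. Its GFP+ rise was 1.42 and its difference of differences 2.01 ± 0.38 (adjusted p = 0.00706). Bbs12, which encodes a chaperonin-like protein of the Bardet-Biedl syndrome group, rose in GFP+ nuclei by 1.11 and had a difference of differences of 0.98 (adjusted p = 0.0254, and 0.0544 without ES8).

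In 56 of the 79 higher genes GFP- nuclei fell alone. Mybl1, a transcription factor of the MYB family, was 226, 300.1, 262 and 311 in GFP- nuclei at P7 and 84.9, 94, 81.2 and 48.8 at P80. In GFP+ nuclei it was 78.4, 96.3, 66.2 and 69.5 at P7 and 72.7, 56.8, 67.1 and 71.4 at P80. GFP- values did not overlap between ages and GFP+ values did; GFP+ nuclei were below GFP- nuclei at P7, and the populations overlapped at P80. Mybl1 fell in GFP- nuclei by 1.85, and its difference of differences was 1.65 ± 0.29 (adjusted p = 0.00522).

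Of the cell cycle genes 1 of 22 was called higher (4.55%, against 0.424% of all genes tested), and none passed without ES8. All 22 cell cycle genes tested had a difference of differences above 0, between 0.10 and 2.53, with a median of 1.35 against 0.00 over all genes. Several had low values in GFP+ nuclei, where log2(value + 1) leaves little room for a fall. Mean GFP+ values at P7 and P80 were 4.84 and 1.14 in Cdk1 and 4.99 and 0.80 in Aurkb. Mean GFP- values were 39.7 and 1.64 in Cdk1 and 24.7 and 1.94 in Aurkb. Other members, such as Kif15, stood higher. The part of this floor in the positive values was not tested. Under every scaling tried the list's median lay between 1.28 and 1.38, but rescaling shifts all genes of a library together. Without ES8 the median was 1.15. With libraries scaled to equal pan-neuronal levels, no cell cycle gene passed. In GFP- nuclei 18 of the 22 fell (8.77% of all genes tested), and in GFP+ nuclei 5 fell (5.91%). The called gene was Kif15, a mitotic motor. It was 166, 238, 196 and 196 in GFP- nuclei at P7 and 91.4, 58.2, 76.2 and 38.9 at P80. GFP+ nuclei had 97.7, 84, 82.1 and 99.97 at P7 and 69.6, 65.3, 69.6 and 57.4 at P80. Neither population's values overlapped between ages, although the GFP+ change did not pass (adjusted p = 0.168). The difference of differences was 1.17 ± 0.29 (adjusted p = 0.0331), and it was 0.94 without ES8 (adjusted p = 0.0554). Mki67, a marker of dividing cells, fell in both populations, with changes of -3.35 and -4.94.

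The promoters of Spag5 and Kif15 are shown because genes of mitosis often carry the cell cycle genes homology region, TTTGAA or its reverse complement TTCAAA, here in capitals. Both sequences are RefSeq's for GRCm38.p6, plus strand, from 250 bases before to 50 bases after the gene start, at chr11:78301341-78301640 for Spag5 and chr9:122950831-122951130 for Kif15.
Spag5: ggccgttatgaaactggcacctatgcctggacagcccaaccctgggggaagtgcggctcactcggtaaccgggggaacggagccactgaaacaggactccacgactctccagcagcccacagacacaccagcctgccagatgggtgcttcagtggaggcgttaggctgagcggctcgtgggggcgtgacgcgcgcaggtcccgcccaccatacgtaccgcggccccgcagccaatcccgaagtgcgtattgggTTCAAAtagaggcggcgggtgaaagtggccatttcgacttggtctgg
Kif15: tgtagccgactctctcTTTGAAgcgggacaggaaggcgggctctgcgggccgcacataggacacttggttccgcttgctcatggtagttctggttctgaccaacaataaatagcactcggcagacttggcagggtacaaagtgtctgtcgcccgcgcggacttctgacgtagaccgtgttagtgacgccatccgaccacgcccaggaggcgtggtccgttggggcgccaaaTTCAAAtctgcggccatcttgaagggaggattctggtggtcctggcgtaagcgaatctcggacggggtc
Of 19 cell cycle genes with a promoter in the table, 12 held the letters on either strand (63.2%), against 18.1% of all promoters. Of the 79 higher genes, 51 had a promoter and 6 of these held them (11.8%).

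Higher genes outside cell division were spread over several functions. Col24a1, a fibrillar collagen chain, was 1505, 1393, 1550.5 and 1744 in GFP+ nuclei at P7 and 1281, 958, 1629.9 and 1935 at P80. GFP- nuclei had 541, 506, 596 and 711 at P7 and 236, 234, 189 and 71.4 at P80. GFP+ nuclei were above GFP- nuclei at both ages, the GFP- values of the 2 ages did not overlap, and ES8 was the lowest. Its difference of differences was 1.68 ± 0.43 (adjusted p = 0.0449).

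Hmga2, an architectural chromatin protein of growing tissues, likewise was higher in GFP+ nuclei at both ages, at 794, 575, 759 and 662 at P7 and 591, 576, 508 and 603 at P80. In GFP- nuclei it was 168, 111, 177 and 141 at P7 and 65.3, 67.1, 53.1 and 55.2 at P80. The GFP- groups were apart and the GFP+ groups overlapped. GFP- nuclei fell by 1.28, and the difference of differences was 0.997 with a standard error of 0.23 (adjusted p = 0.0269). Sema5a, a semaphorin of axon guidance, did not pass at P7 (0.03) and was higher in GFP+ nuclei at P80 (1.18), with a difference of differences of 1.14 ± 0.21 (adjusted p = 0.00545).

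Zbtb1, a zinc finger transcription factor, was higher through opposite changes. It was 219, 237, 222 and 216 in GFP+ nuclei at P7 and 342, 350.2, 404 and 353 at P80. Its GFP- values were 495, 618, 507 and 626 at P7 and 409, 427, 368 and 396 at P80. No 2 ages overlapped within a population, and the populations overlapped at P80 but not at P7. For this gene the difference of differences was 1.17 ± 0.15 (adjusted p = 0.000452), with the same value without ES8 at 1.17. Pmepa1, a membrane inhibitor of TGF-beta signalling (1.09), and Adamtsl2, a secreted matrix protein (1.48), had the same pattern.

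The 17 genes in which both populations moved the same way included 7 higher ones. Stx16, a SNARE of the Golgi, rose in GFP+ nuclei by 1.27 and in GFP- nuclei by 0.56, for a difference of differences of 0.71 ± 0.14 (adjusted p = 0.00827). Dock6, an activator of Rac and Cdc42, fell by 0.52 in GFP+ and by 1.42 in GFP- nuclei and had 0.90.

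**Figure D4:**
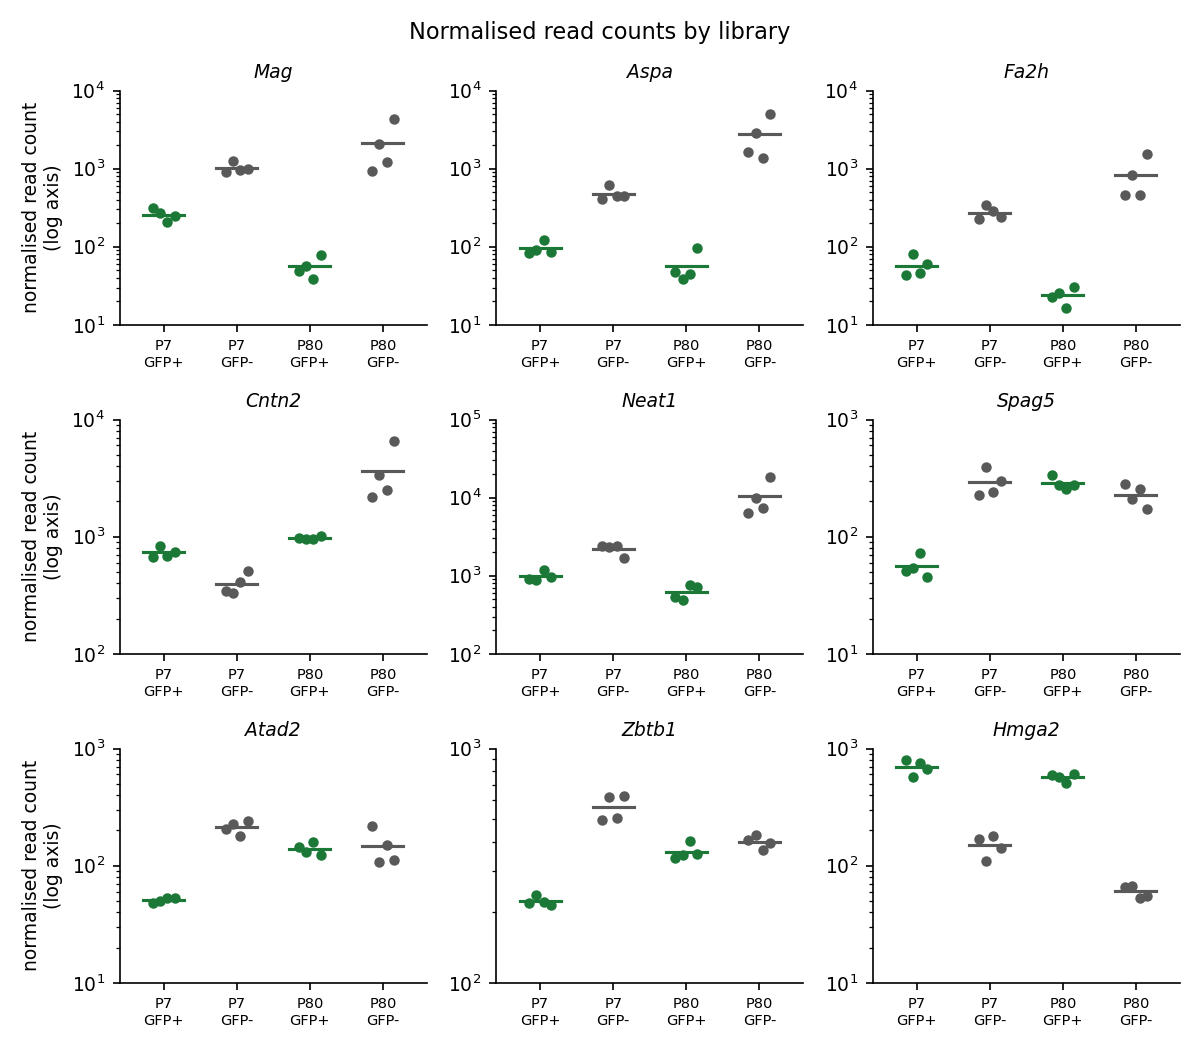
Normalised read counts (log axes, which differ between panels) of 9 genes in the 4 libraries of each group, with GFP+ in green and GFP- in grey and the group mean as a bar. In Mag, Spag5 and Atad2 the GFP+ group moved, in Aspa, Cntn2, Neat1 and Hmga2 the GFP- group, and in Fa2h and Zbtb1 both groups moved in opposite directions.

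In the authors' deposited table, the log2 fold change of GFP+ over GFP- was -1.99 at P7 and -5.06 at P80 for Mag. For Spag5 the authors' deposited table gave -2.38 at P7 and 0.34 at P80.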

How the data were processed

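RNA of sorted nuclei was sequenced after NuGEN SoLo library preparation with 15 cycles of amplification, per the labels. Tools listed by the submitters' processing notes are STAR, HTSeq, DESeq2, cutadapt and Trim Galore. Their versions, the genome build and the use of strand are not stated there. The per-library values were deposited as a normalised signal: they are whole multiples of 1 step per library within a tolerance of 0.01, which means that the authors had divided gene counts by a size factor for each library, and read counts were recovered from the steps. The authors' deposited log2 fold changes at P7 and P80 were used for the values named as theirs and to check signs: their P80 minus P7 difference, from the same libraries, had the sign of the fit in 386 of 386 called genes, and their deposited adjusted p-values were copied and not otherwise used.

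Each column has a library code. The authors' sheet for an age gave a library's age, and presence in their across-age table of GFP+ nuclei gave its population, per the file headers; no code names an animal. The 22 libraries from 11 animals were fitted together with 6 group means in limma 3.58.1 (R 4.3.3, trend and robust options) on log2(value + 1), keeping genes that reached a value of 10 in 3 or more libraries. P-values were adjusted over all 18614 genes by Benjamini-Hochberg, and a call is an adjusted p under 0.05. P-values rest on the spread between libraries of different animals; that a GFP+ and a GFP- library share an animal could not enter the fit. A population was said to move where its own P7 to P80 change passed. Values after ± are standard errors from the fit, and values in each group are listed in the order of the library codes.

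Genes named were Pdyn and, among called genes with at least the median mean level, a sign kept without any 1 library and a gene symbol that is not a clone name, the 10 highest, the 10 lowest and the 3 largest in each direction for each way the populations moved. From each of 42 gene lists up to 3 called members, or the largest uncalled one, were added; oligodendrocyte and cell cycle members, and Mki67, were described further. The naming rule and the lists were chosen with earlier results of these data known. A few genes that the rule picked are not reported here. Lists are described by counts and medians, with no test. The test was tried on simulated reads with known changes. Alternatives were other filters, pseudocounts (0.5 and 10) and scalings, edgeR 4.0.16 and DESeq2 1.42.0 on the recovered reads, the 16 libraries alone and each library left out. Promoters are RefSeq's (GRCm38.p6); the first listed start of each gene was used, and motifs were searched on both strands. Spans of overlapping genes were looked up in GENCODE M21.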

Additional observations from a re-analysis of the deposited data

Results flagged for a closer look

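In 6 of the genes named the populations moved in opposite directions between P7 and P80. The naming rule took them from called genes, 3 in each direction, so their number and their passing were set by the rule. Among the 386 called genes, 25 moved in opposite directions (0.134% of all genes tested). The differences of differences were 1.48 in Adamtsl2, 1.17 in Zbtb1 and 1.09 in Pmepa1, in which GFP+ nuclei rose and GFP- nuclei fell. They were -2.63 in Fa2h, -2.51 in Daam2 and -2.40 in Inf2, in which GFP+ nuclei fell and GFP- nuclei rose; without ES8 the GFP- rise of Daam2 and Inf2 did not pass (adjusted p = 0.0924 and 0.0517). In all, 386 genes had a population difference that itself differed between the ages.

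Single libraries lay far from the other 3 of their group in 15 of 316 groups tested over the 79 named genes. The nominal rate of the test is 1 in 20. The genes were chosen by the naming rule and share the same libraries, so the share cannot be judged against that rate. The P80 GFP- library ES8 accounted for 3 of the 15. It had a Pdyn value of 0, against 12.03 to 15.7 in the other 3, an Hba-a2 value of 53.4 against 0 in the other 3, and an mt-Nd4 value of 672 against 201 to 240.5.

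At P7, GFP- library ES18 had 62.9 for Itgb4 (others 90.7 to 95.4) and 6344 for Map2 (others 6057 to 6100). GFP- library ES24 had 182 for Hcn2 (others 125 to 133), 48.2 for Stmn1 (others 80.7 to 89.7) and 1673 for Neat1 (others 2336 to 2416). GFP- library ES22 had 23.7 for Rpl27, and GFP- library ES20 had 1.61 for Slc6a13. Among P7 GFP+ libraries, ES17 had 52.3 for Inf2 (others 91.4 to 99.2), ES21 had 1.23 for C1qa and ES19 had 0.823 for Slc6a13. At P80, GFP+ library ES5 had 170.3 for Grin2c (others 235 to 245), and GFP+ library ES3 had 4.28 for Ndufa1.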

How the results depend on the processing

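No paired analysis was possible because the library codes of the columns carry no animal number. The sign of each of the 386 genes was kept under every alternative in which the gene was tested. The 386 calls (79 higher, 307 lower) became 588 (159 and 429) with the 16 libraries alone, 665 (149 and 516) with DESeq2 and 263 (57 and 206) with limma without trend and robust options. Filters, pseudocounts, TMM and upper-quartile scaling and edgeR gave 329 to 403. Scaling libraries to equal pan-neuronal levels, which moved the median difference of differences of all genes to -0.19, left 6 (1 and 5), namely Spag5, Prr5l, Tmprss5, AC124560.1, Gm410 and Gm597; GFP- nuclei had moved alone in 4 and GFP+ nuclei alone in 2 by that scaling. It gave 9901 genes that differed at P80, 5746 at P7, and 640 and 1731 that changed with age in GFP+ and GFP- nuclei. The cause was not tested. DESeq2 had 408 calls with GFP- and 151 with GFP+ nuclei moving alone.

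Leaving out 1 library gave 227 to 545 calls, 39 to 106 higher and 180 to 439 lower, with GFP- nuclei moving alone in 146 to 353 and GFP+ nuclei alone in 47 to 122; 1083 to 2205 genes changed with age in GFP+ nuclei. The count fell by over 1.5 times without ES1 (228), ES3 (230), ES4 (230), ES5 (254), ES18 (227), ES20 (252), ES21 (250) or ES24 (232). Chosen after seeing the data, a fit without ES8, ES12 and ES16 gave 760 (234 and 526), of which GFP- nuclei moved alone in 378 and GFP+ nuclei alone in 184, with 5648 genes different at P7 and 3867 and 4621 changed with age in GFP+ and GFP- nuclei. edgeR on the 16 libraries, also chosen afterwards, gave 606 (176 and 430).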

Other observations

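Several named genes lay outside the groups described above. Fam212b, which encodes an inhibitor of the kinase PAK4, was 294, 290.4, 243 and 253 in GFP- nuclei at P7 and 67.9, 96.2, 72.2 and 134 at P80. It was 72.7, 82.3, 57.6 and 69.5 in GFP+ nuclei at P7 and 79, 91, 54.7 and 67.9 at P80, with a difference of differences of 1.62 ± 0.32 (adjusted p = 0.00928). The GFP- groups were apart and the GFP+ groups overlapped. The kinase gene Stk32a (1.41) and the protocadherin gene Pcdh18 (1.37) were also higher through a fall in GFP- nuclei; Pcdh18 did not pass without ES8 (adjusted p = 0.0805). Prr5l, which encodes a partner of the mTORC2 kinase complex, rose in GFP- nuclei by 2.66 and had a difference of differences of -3.25 ± 0.44 (adjusted p = 0.000711).

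Some genes changed in 1 population without a call in the difference of differences. Egr3, an immediate early transcription factor, was 3.41, 1.65, 7.35 and 7.81 in GFP+ nuclei at P7 and 27, 13.9, 21.1 and 14.8 at P80. In GFP- nuclei it was 9.24, 7.26, 8.87 and 13.2 at P7 and 7.84, 12.3, 6.02 and 2.71 at P80. The GFP+ groups did not overlap, and the difference of differences was 2.34 ± 0.68 (adjusted p = 0.0809). Sstr3, a somatostatin receptor, rose in GFP+ nuclei by 1.75 (adjusted p = 0.0174), with a difference of differences of 1.41 (adjusted p = 0.401). Prdm8, a transcriptional repressor, had higher values in GFP+ nuclei at both ages, fell in GFP- nuclei (change -1.21, adjusted p = 0.0143, and -0.88 without ES8, adjusted p = 0.0546) and had 1.08 (adjusted p = 0.357). The maintenance methylation factor Uhrf1 fell in GFP- nuclei (change -3.40, adjusted p = 0.000189) and had 2.10 (adjusted p = 0.234).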
